A study of Mus musculus with 64 samples.

Results

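The regulators and effectors of the integrated stress response are described here through 10 genes chosen by symbol: regulators (Atf4, Atf5, Ddit3, Cebpg), effectors (Trib3, Chac1, Nupr1, Sesn2, Gdf15) and the phosphatase subunit Ppp1r15a. All 10 were found among 45708 genes of the count table. All 10 passed the filter on low counts that left 18413 genes, and they passed it also on the control libraries alone and on the KO libraries alone.

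This response is a shared pathway through which cells under stress hold back translation. Kinases phosphorylate the translation factor eIF2α, general protein synthesis falls, and the mRNA of the transcription factor ATF4 is translated more. ATF4 and its bZIP partners then raise a set of effector genes, while a phosphatase arm (GADD34, encoded by Ppp1r15a) reverses the phosphorylation. In mitochondrial dysfunction the signal is known to reach eIF2α through the protease OMA1, the relay protein DELE1 and the kinase HRI. Because ATF4 is set largely at translation, its mRNA can stand still while its targets move.

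The series measured RNA in microglia, the brain's resident macrophages, sorted by CD11b and CD45 from whole brains of mice that are KO, Het or WT for RISP, the Rieske subunit of respiratory complex III encoded by Uqcrfs1. The 64 libraries form 12 groups. There are 31 libraries of naive adults (KO 13, Het 13, WT 5) and 3 of naive old animals, all Het. Cuprizone, a toxin of oligodendrocytes that causes demyelination, was given to adults of KO (6) and Het (4) genotype. PLX3397, which depletes microglia by blocking CSF1R, was given to adults sampled at depletion (KO 2, Het 2, WT 4) or once microglia had returned, called repopulation (4 per genotype). The driver of the deletion, the exact ages, the doses and the days are not given in the sources used here, nor is it stated whether replicates are separate animals, so p-values measure only the spread between these libraries. The naive adults fall by replicate number into 3 sets that differ in library composition: set 1 holds KO 1 to 5, Het 1 to 4 and WT 1 to 5, set 2 holds KO 6 to 11 and Het 5 to 11, and set 3 holds KO 12 and 13 and Het 12 and 13. KO was compared with its controls only inside a set or a treatment, and at depletion and repopulation with the equal-weight mean of Het and WT; the 2 comparisons of set 1 share their KO libraries.

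Total counts per library ran from 2.7 M to 24 M with a median of 11.9 M, and the cuprizone libraries were the shallowest at 2.7 M to 5.1 M. A pair of abundant noncoding RNAs, Gm26917 and Yam1, took 0.0688 to 0.276% of counts in the 34 libraries of naive set 1, depletion and repopulation, and 2.22 to 13.6% in the other 30. Within cuprizone, KO 5 and 6 and Het 3 and 4 had under 3% and the other 6 libraries more. Naive set 1 is also divided in its counts, with KO 5, WT 5 and all Het libraries on one side. Per the labels' protocols, untreated KO and WT libraries were run on one sequencer model and all others on another. On that account genotype and sequencer cannot be told apart in naive KO against Het, whereas KO and WT of set 1 share a sequencer. The division of set 1 in its counts does not follow that account in full, as KO 5 and WT 5 lie with the Het libraries. Which libraries shared a sequencer is therefore not settled here. The share of Gm26917 and Yam1 also differed by genotype inside the libraries poor in them. It was 0.107 to 0.257% in KO and 0.0688 to 0.105% in Het of naive set 1, and 0.195 to 0.276% in KO, 0.0897 to 0.18% in Het and 0.102 to 0.153% in WT at repopulation, with KO above in each; WT of naive set 1 (0.072 to 0.138%) overlapped KO.

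The microglia markers P2ry12 and Tmem119 had counts in every library, at 1139 to 4757 CPM and 503 to 5610 CPM (counts scaled to a common library size after TMM, the unit of all levels here). Tmem119 was lower in KO without overlap in 6 of 9 pairs of groups. Over all genes tested, KO ranges lay wholly below in 1.35 to 21.3% of genes by pair and wholly above in 0.967 to 23%. These shares were largest where KO had 2 libraries. They were 21.3% below and 23% above in naive set 3, 16.4% and 19.2% at depletion against Het, and 8.89% and 12.1% against WT there. The same shares stand beside the members' ranges that are called apart below. At repopulation it was 3032 to 3393 CPM in KO, 4366 to 4955 in Het and 4607 to 5610 in WT. P2ry12 was lower in KO in 2 of the 9 pairs and higher in 1, cuprizone (2156 to 3280 CPM against 1726 to 2145 in Het). The sum of 6 microglia markers was lower in KO, without overlap, in naive set 1 against Het (22732 to 25530 CPM against 27955 to 30836), at depletion (19926 to 20638 in KO, 22755 to 26785 in Het, 24452 to 25867 in WT) and at repopulation against WT (23707 to 25493 against 26066 to 31430). Over all libraries the markers of oligodendrocytes summed to 33.3 to 1850 CPM, of border-associated macrophages to 20.9 to 956, of endothelium to 12.4 to 505, of astrocytes to 90.8 to 356, of neurons to 0.268 to 88.2, of monocytes to 2.37 to 45.9, of neutrophils to 0 to 59.2 and of lymphocytes to 0 to 3.27. Endothelial sums were lower in KO at repopulation (26.4 to 64.4 CPM against 65.2 to 151 in Het and 79.6 to 143 in WT), and monocyte sums were lower than in WT in naive set 1 (4.83 to 17.7 against 24.2 to 45.9) and at repopulation (3.2 to 5.85 against 7.42 to 10.8). Lymphocyte sums were below WT in naive set 1 (0.0848 to 0.949 against 1.67 to 3.27), and astrocyte sums were above Het under cuprizone (138 to 173 against 107 to 129). Naive set 3, with 2 libraries a group, had lower oligodendrocyte, endothelial and lymphocyte sums and higher neuron sums in KO, while neutrophil and border-associated macrophage sums overlapped in all 9 pairs of groups. The part of these markers and of the noncoding share in the members' differences was not tested. Uqcrfs1 itself was lower in KO in all 7 comparisons, with log2 fold changes from -1.73 (naive set 1, against Het) to -4.0 (cuprizone), and KO and control ranges did not overlap in any of them. In bulk RNA, fewer cells of a kind and less RNA per cell cannot be told apart.

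In KO microglia Atf5 and the effectors were higher than in controls in most comparisons, while Atf4 mRNA was higher at repopulation, lower under cuprizone and not called in the other 5. By edgeR's quasi-likelihood test with Benjamini-Hochberg adjustment over all genes tested (threshold 0.05), 6 members rose and none fell in naive set 1 against Het, where 1.48% of all genes were called higher and 1.25% lower. Against WT of the same set 5 rose, beside 1.15% of all genes higher and 0.787% lower. In naive set 2, 5 rose and 2 fell, beside 7.68% and 6.07%. In naive set 3, with 2 libraries a group, 1 rose, beside 0.348% higher and 0.223% lower. Under cuprizone 4 rose and 3 fell, beside 8.16% and 5.83%. At depletion 5 rose, beside 1.1% and 0.614%, and at repopulation 9 rose, beside 4.01% and 3.45%. In the weighted mean of the 3 naive KO to Het differences 6 rose and 1 fell, beside 9.23% and 7.64%. Scaling by DESeq2's size factors turned the majority of called genes from higher to lower in 5 of these 8: in naive set 1 against Het from 272 higher and 230 lower to 265 and 303, in naive set 2 from 1414 and 1117 to 1138 and 1380, under cuprizone from 1502 and 1074 to 1050 and 1401, at repopulation from 738 and 636 to 620 and 772, and in the naive mean from 1699 and 1407 to 1428 and 1696. It changed no member's direction in the 7 single comparisons.

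Across the 7 comparisons Atf5 rose in 7, Chac1 in 6, Trib3, Nupr1 and Gdf15 in 5 each and Sesn2 in 4. Atf4 rose in 1 and fell in 1, Ddit3 rose in 1 and fell in 2, Cebpg rose in 1, and Ppp1r15a fell in 2. The median log2 fold change of the 10 members ran from 0.72 under cuprizone to 1.48 at repopulation, where the medians over all genes tested were 0.02 and 0.

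**Figure D1:**
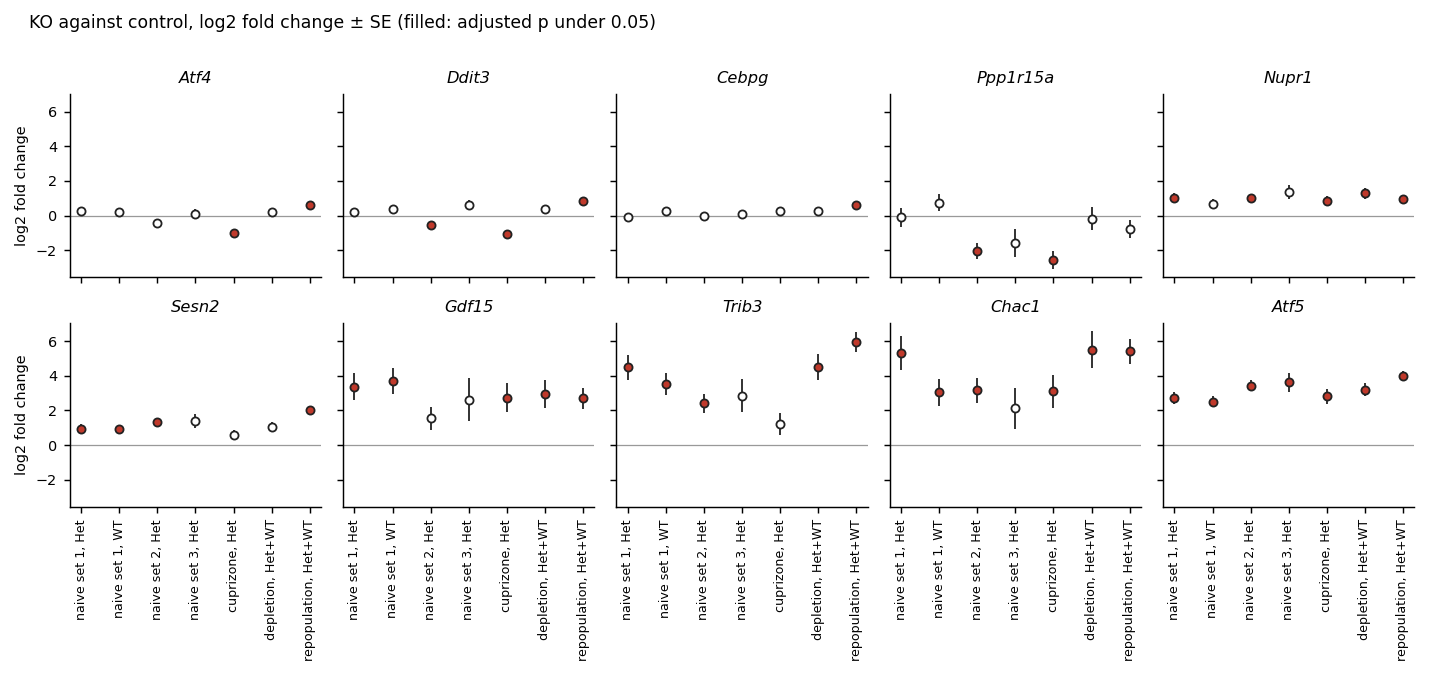
Log2 fold change of each member (y axis, points with ± SE) in the 7 comparisons of KO with its controls (x axis, with the naive set or treatment and the control genotype); filled points have an adjusted p under 0.05. Atf5 lies between 2.49 and 3.97 in all 7, whereas Atf4 lies between -1.0 and 0.59 and Ppp1r15a between -2.56 and 0.75.

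Atf4 (ENSMUSG00000042406, GRCm38 chr15:80255184-80257541, plus strand) encodes the transcription factor at the centre of the pathway. In naive set 1 the KO libraries held 104, 115, 100, 162 and 136 CPM, the Het libraries 112, 99.3, 106 and 98.7 and the WT libraries 102, 93.7, 113, 113 and 114. The ranges overlapped, with KO 2, 4 and 5 above every control (KO 2 barely) and KO 1 and 3 among them. The log2 fold change was 0.24 ± 0.18 SE against Het (adjusted p = 0.615, 95% interval -0.12 to 0.60) and 0.20 ± 0.17 against WT (adjusted p = 0.745, 95% interval -0.14 to 0.54). In naive set 2 Atf4 ran from 91.7 to 110 CPM in KO (median 107) and from 101 to 170 in Het (median 142), so that 6 of the 7 Het libraries lay above every KO library and Het 11 among them. That difference of -0.43 ± 0.15 missed the threshold (adjusted p = 0.0508) and passed it under 5 of 7 other settings, at -0.45 to -0.49. In naive set 3 the KO libraries held 108 and 120 CPM and the Het libraries 115 and 99.5, which overlapped (0.09 ± 0.27, adjusted p = 1).

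Under cuprizone Atf4 mRNA was lower in KO. The 6 KO libraries ran from 135 to 205 CPM (median 152) and the Het libraries held 246, 240, 356 and 429, with every Het library above every KO library. The log2 fold change was -1.0 ± 0.18 (adjusted p = 3.23e-05). At repopulation the order was the opposite, with 89.5, 151, 156 and 134 CPM in KO, 67.9, 98.1, 74.5 and 128 in Het and 68.4, 65.4, 113 and 90.5 in WT. KO 2 to 4 lay above all controls and KO 1 lay among them. Atf4 rose there by 0.59 ± 0.16 (adjusted p = 0.015), a call that was lost without KO 2 (0.52, adjusted p = 0.081) or KO 3 (0.50, adjusted p = 0.0988) and in the fit of the compared libraries alone (0.57, adjusted p = 0.0583). At depletion KO held 108 and 95 CPM, Het 87.8 and 79.2 and WT 128, 100, 69.2 and 76.3, and the difference was 0.20 ± 0.23 (adjusted p = 0.888).

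Ddit3 (ENSMUSG00000025408, chr10:127290774-127296288, plus strand) encodes CHOP, a bZIP factor tied to cell death under prolonged stress. Ddit3 in naive set 1 ran from 10.6 to 19.9 CPM in KO, 11.6 to 14.5 in Het and 8.81 to 14.9 in WT, overlapping ranges with no call (adjusted p = 0.734 and 0.421). Ddit3 in naive set 2 ran from 11.9 to 19 CPM in KO (median 13.5) and 15.2 to 26.9 in Het (median 22.2) and fell by 0.54 ± 0.17 (adjusted p = 0.0259). That call was lost under 3 of 7 other settings (adjusted p up to 0.746), among them the fit of the compared libraries alone (adjusted p = 0.0628). In naive set 3, with 2 libraries a group, Ddit3 was higher in KO (27.5 to 32.6 CPM) than in Het (16 to 23.1 CPM), without overlap and not called. Under cuprizone it ran from 18.3 to 32.6 CPM in the 6 KO libraries (median 28.3) against 49.2, 38.7, 58.6 and 75.7 in Het, with all Het libraries above, and fell by 1.04 ± 0.19 (adjusted p = 9.79e-05). At repopulation KO held 17, 24.9, 25.7 and 28.8 CPM, Het 9.57, 14.1, 12.6 and 20.3 and WT 10.8, 15.4, 13.9 and 10.8. KO 2 to 4 were above all controls there, and Ddit3 rose by 0.85 ± 0.18 (adjusted p = 0.000952). Reads of Ddit3 per 100 reads of Atf4 ran from 7.81 to 31.6 over all libraries, with a median of 17.8 in KO and 15.1 in Het and 14.1 in WT at repopulation and of 18.8 in KO and 17.0 in Het under cuprizone. The annotation (GENCODE M21) places Mars and Gm4189 on the opposite strand and another entry named Ddit3 on the same strand over this locus, and how the counting treated strand is not given in the sources used here.

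Cebpg (ENSMUSG00000056216, chr7:35046422-35056573, minus strand) encodes C/EBPγ, a bZIP partner of ATF4. At repopulation it held 132, 175, 207 and 147 CPM in KO, 93.3, 109, 107 and 131 in Het and 97.2, 103, 112 and 118 in WT. All KO libraries were above all controls, KO 1 only just above Het 4, and Cebpg rose by 0.60 ± 0.13 (adjusted p = 0.00176). In the other 6 comparisons the log2 fold change lay between -0.08 and 0.27 and none was called. Cebpg overlaps Gm44836, Gm45094 and Gm45095 in the annotation.

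**Figure D2:**
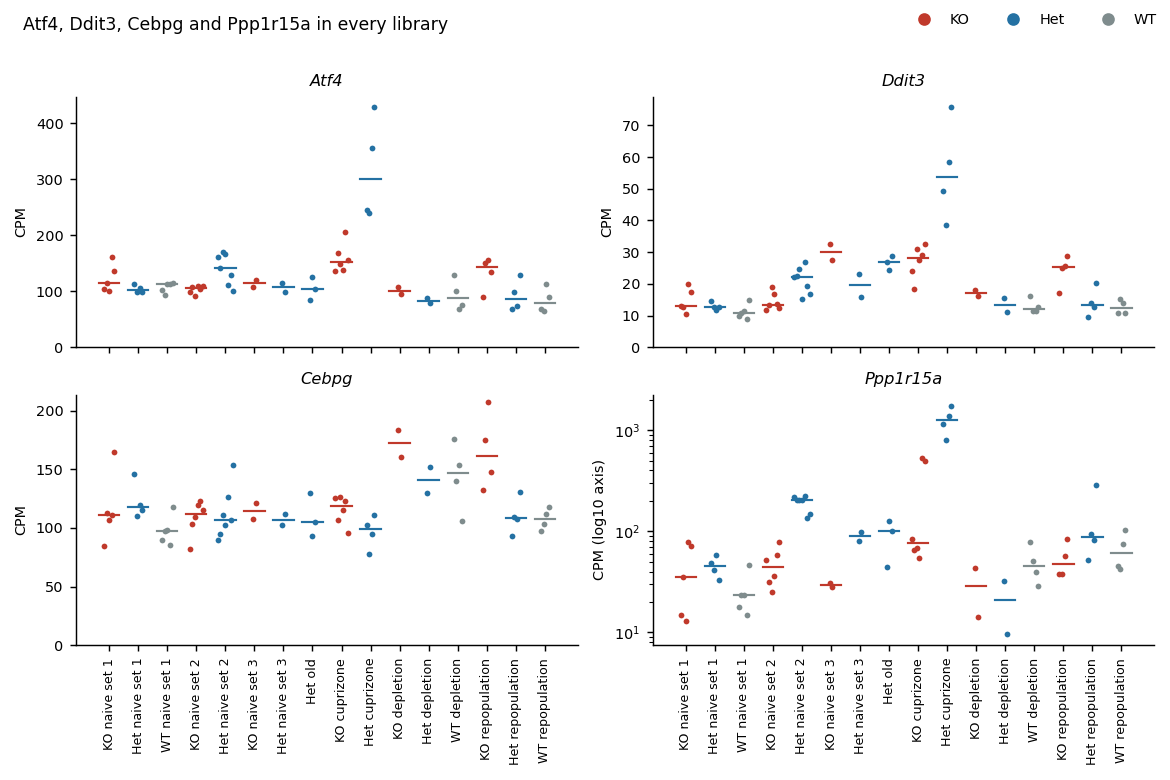
CPM of Atf4, Ddit3, Cebpg and Ppp1r15a (y axis, log10 for Ppp1r15a) in each of the 64 libraries by group (x axis); points are libraries, bars are group medians and colours the genotype. Cuprizone Het libraries stand highest in Atf4 (240 to 429 CPM), Ddit3 (38.7 to 75.7 CPM) and Ppp1r15a (798 to 1743 CPM).

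Atf5 (ENSMUSG00000038539, chr7:44812256-44816658, minus strand) encodes a bZIP factor related to ATF4, known for its part in the mitochondrial stress response. In naive set 1 the KO libraries held 12.3, 42, 73.3, 94.6 and 63.2 CPM, the Het libraries 9.06, 7.45, 9.3 and 8.98 and the WT libraries 9.08, 11.5, 9.1, 10.6 and 10.5. KO 1 lay just above the highest control and the other KO libraries far above it. Atf5 rose by 2.71 ± 0.35 against Het (adjusted p = 3.20e-06) and 2.49 ± 0.32 against WT (adjusted p = 1.57e-06). Uqcrfs1 in KO 1 was 8.64 CPM, within the range of the other KO libraries (5.33 to 9.32 CPM).

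In naive set 2 Atf5 ran from 23.7 to 39.1 CPM in KO (median 34) and 1.29 to 5.36 in Het (median 2.8), without overlap, a rise of 3.43 ± 0.31 (adjusted p = 7.06e-12). Set 3 gave 31.4 and 27.6 CPM in KO and 2.47 and 2.32 in Het (3.62 ± 0.55, adjusted p = 0.000122). Cuprizone gave 18 to 34.9 CPM in KO (median 21) and 2.65, 3.74, 2.9 and 4.28 in Het (2.80 ± 0.41, adjusted p = 1.49e-06). The KO and control ranges were again apart in both.

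At depletion the KO libraries held 91.1 and 66.3 CPM, Het 10.7 and 7.86 and WT 7.91, 8.46, 6.98 and 9.03 (3.18 ± 0.38, adjusted p = 4.06e-07). At repopulation they held 265, 172, 184 and 183 CPM, with 10.4, 12.7, 11 and 14.7 in Het and 10.5, 15.6, 14.6 and 12.9 in WT (3.97 ± 0.29, adjusted p = 6.93e-15). No KO library overlapped a control library in either. Per kilobase of exon, the median level of Atf5 in repopulation KO libraries was 92.0 CPM against 60.5 CPM for Atf4, while in Het the levels were 5.95 CPM for Atf5 and 36.6 CPM for Atf4. Nup62 and Il4i1 overlap Atf5 on the opposite strand.

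Trib3 (ENSMUSG00000032715, chr2:152337422-152344032, minus strand) encodes a pseudokinase that is a target of ATF4 and CHOP and feeds back on them. Chac1 (ENSMUSG00000027313, chr2:119351229-119354381, plus strand) encodes a glutathione-degrading enzyme, and Nupr1 (ENSMUSG00000030717, chr7:126623249-126630861, minus strand) a small stress-induced chromatin protein. These are the 3 members of 10 whose RefSeq promoter (250 bases before to 50 after the start, GRCm38.p6) held the C/EBP-ATF composite motif TGATGNAA on either strand. The motif was found in 3.97% of all 32851 such promoters. Trib3's copy starts at base 15 of the RefSeq transcript, outside the 250 bases before the start, in which 2 of 10 members and 3.45% of all promoters held the motif. Chac1's starts 193 bases and Nupr1's 110 bases before the RefSeq start, although a GENCODE transcript of Nupr1 starts further upstream. They are printed because these members rose in 5, 6 and 5 of the 7 comparisons, with the motif, read on the gene's strand, in capitals; for Chac1 the stretch up to the GENCODE start is shown and for the others 30 bases around the motif.
Chac1, chr2:119350992-119351228, plus strand: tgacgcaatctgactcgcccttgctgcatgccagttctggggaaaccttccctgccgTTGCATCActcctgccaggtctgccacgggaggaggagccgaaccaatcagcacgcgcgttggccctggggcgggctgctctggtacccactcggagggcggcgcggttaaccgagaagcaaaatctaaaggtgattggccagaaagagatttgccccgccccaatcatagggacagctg
Trib3, chr2:152344028-152344057, minus strand: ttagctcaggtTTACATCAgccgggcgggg
Nupr1, chr7:126625562-126625591, minus strand: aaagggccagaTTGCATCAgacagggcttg

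Trib3 had few reads in most control libraries. Libraries of naive set 1 held 1.49, 5.82, 8.43, 28.2 and 14 CPM in KO, 0.323, 0.842, 0.304 and 0.552 in Het and 0.601, 1.51, 0.844, 1.48 and 0.508 in WT. KO 1 lay just under the highest WT library and above all Het libraries, and KO 2 to 5 lay above every control. It rose by 4.49 ± 0.74 against Het (adjusted p = 0.000145) and 3.53 ± 0.63 against WT (adjusted p = 0.000948). Trib3 in naive set 2 ran from 2.29 to 10.4 CPM in KO (median 5.11) and 0.142 to 3.14 in Het (median 0.869), with Het 5 inside the KO range, and rose by 2.40 ± 0.55 (adjusted p = 0.00168). At depletion KO held 15.9 and 11.9 CPM against 0.254 to 0.605 in Het and 0.321 to 1.23 in WT (4.48 ± 0.75, adjusted p = 0.000289).

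Trib3 was at its highest in 3 repopulation KO libraries, KO 2 to 4, while KO 1 lay below KO 4 of naive set 1. The group held 21.3, 47.5, 54.8 and 59 CPM, against 0.772, 0.166, 0.618 and 1.32 in Het and 0.382, 0.486, 1.78 and 0.371 in WT. All 4 KO libraries stood far above the 8 controls, and the log2 fold change was 5.94 ± 0.58 (adjusted p = 7.07e-11). Under cuprizone the KO libraries ran from 5.22 to 12.6 CPM (median 6.12) and the Het libraries held 1.18, 1.25, 5.01 and 6.15. Het 4 lay among the KO libraries and Het 3 just below them, and the difference of 1.2 ± 0.65 was not called (adjusted p = 0.229, 95% interval -0.06 to 2.47). Set 3 gave 12 and 15.8 CPM in KO and 0.68 and 3.13 in Het, not called with 2 libraries each (2.85 ± 0.95, adjusted p = 0.186).

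Chac1 had very few reads in controls, so its fold changes are imprecise. Its counts in naive set 1 were 14, 36, 46, 165 and 56 in KO, 2, 3, 2 and 0 in Het and 5, 8, 16, 13 and 2 in WT, or 1.04, 2.23, 3.15, 14 and 4.09 CPM in KO and at most 0.194 CPM in Het and 0.964 CPM in WT. All KO libraries were above all controls, with KO 4 the highest. It rose by 5.31 ± 0.99 against Het (adjusted p = 0.000588) and 3.05 ± 0.77 against WT (adjusted p = 0.0202). The call against WT was lost without KO 4 (2.16, adjusted p = 0.215), WT 1 (2.91, adjusted p = 0.0682), WT 2 (3.03, adjusted p = 0.0511) or WT 5 (2.82, adjusted p = 0.0634), and in the fit of the compared libraries alone (3.04, adjusted p = 0.0589).

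In naive set 2 Chac1 ran from 1.17 to 7.87 CPM in KO (median 2.9) and 0 to 1.44 in Het, where 3 of 7 libraries had no read and Het 5 reached the KO range, and rose by 3.16 ± 0.71 (adjusted p = 0.00145). Under cuprizone it ran from 2.32 to 7.83 CPM in KO (median 3.87), and the Het libraries had 0, 4, 3 and 0 reads. All KO libraries were above all Het libraries, and the rise of 3.09 ± 0.94 (adjusted p = 0.0196) was lost without Het 1 (2.69, adjusted p = 0.0742) or Het 4 (2.67, adjusted p = 0.0736). It rose also at depletion, with 3.9 and 3.57 CPM in KO and at most 0.204 CPM in controls (5.51 ± 1.06, adjusted p = 0.00152). Repopulation gave 3.49, 9.16, 7.14 and 18 CPM in KO and at most 0.680 CPM in controls (5.40 ± 0.74, adjusted p = 4.15e-07).

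Nupr1 rose by a smaller amount. Nupr1 in naive set 1 was 6.86, 13.3, 12.1, 19.2 and 13.9 CPM in KO, 8.02, 6.03, 5.9 and 6.15 in Het and 8.54, 8.38, 11.8, 6.98 and 4.71 in WT, with KO 1 among the controls. The difference was 1.0 ± 0.28 against Het (adjusted p = 0.037) and 0.69 ± 0.26 against WT, not called (adjusted p = 0.226). The call against Het was lost without any 1 of KO 2 to 5 and Het 2 to 4 (adjusted p 0.0533 to 0.189, highest without KO 4) and under 4 of 8 other settings. Nupr1 in naive set 2 ran from 14.6 to 31.8 CPM in KO (median 20.2) and 4.71 to 20.7 in Het (median 9.76), overlapping through Het 10, and rose by 1.01 ± 0.23 (adjusted p = 0.00168), a call lost in the fit of the compared libraries alone (0.99, adjusted p = 0.0608).

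Under cuprizone Nupr1 ran from 27.5 to 42.2 CPM in KO (median 35) with 11.5, 27.4, 14.2 and 23 in Het, nearly touching at Het 2, and rose by 0.86 ± 0.28 (adjusted p = 0.0294). That call was lost without Het 1 (0.68, adjusted p = 0.141) or Het 3 (0.74, adjusted p = 0.107) and under 6 of 9 other settings (adjusted p up to 0.246). At depletion it held 18.9 and 16.2 CPM in KO, 10.9 and 6.86 in Het and 6.72, 3.87, 5.85 and 6.64 in WT, all KO above (1.29 ± 0.33, adjusted p = 0.0219; lost without KO 1, KO 2 or Het 2, at adjusted p = 0.333, 0.127 and 0.138, and in the fit of the compared libraries alone, at 0.0633). At repopulation the ranges were again apart, with 19.2, 21.8, 24.4 and 21.6 CPM in KO, 9.03 to 16.2 in Het and 9.94 to 11 in WT (0.95 ± 0.24, adjusted p = 0.00731).

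Sesn2 (ENSMUSG00000028893, chr4:132492032-132510501, minus strand) encodes sestrin 2, a leucine sensor that restrains mTORC1. At repopulation it held 32.2, 69, 79.1 and 73.6 CPM in KO, 15.5, 17.7, 10.6 and 18.2 in Het and 16.6, 14.4, 14.3 and 18.5 in WT. KO 1 lay lowest among KO yet above all 8 controls, and Sesn2 rose by 2.01 ± 0.23 (adjusted p = 2.97e-09). Sesn2 in naive set 2 ran from 11.5 to 24.4 CPM in KO (median 18.6) and 5.28 to 9.76 in Het (median 7.51), without overlap, and rose by 1.35 ± 0.22 (adjusted p = 2.62e-05). Sesn2 in naive set 1 was 16.8, 27.5, 24.2, 66.2 and 38.6 CPM in KO, 15.4 to 20.4 in Het and 17.2 to 19.1 in WT, with KO 1 inside the Het range and below the WT range, and KO 4 the highest. It rose there by 0.93 ± 0.26 against Het (adjusted p = 0.0369) and 0.92 ± 0.25 against WT (adjusted p = 0.031). Without KO 4 these were 0.56 (adjusted p = 0.375) and 0.55 (adjusted p = 0.413), and the calls were lost also without KO 5 or any 1 of the Het or WT libraries (adjusted p 0.0558 to 0.124). They were lost under 4 of 8 other settings against Het (adjusted p up to 0.249) and 4 of 9 against WT (up to 0.186). Among these were the fits of the compared libraries alone (adjusted p = 0.14 against Het and 0.146 against WT) and, against Het, sex as covariate (adjusted p = 0.0826).

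Under cuprizone Sesn2 ran from 15.7 to 35.9 CPM in KO (median 20.1) with 10.9, 22.5, 16.1 and 15.5 in Het, overlapping and not called (0.58 ± 0.27, adjusted p = 0.154). At depletion KO held 27.6 and 28.5 CPM and all controls 11.8 to 15 CPM. The groups were apart, but the difference of 1.05 ± 0.31 missed the threshold (adjusted p = 0.0614), which it passed with DESeq2 (1.01, adjusted p = 0.0449) and in the fit of the compared libraries alone (1.03, adjusted p = 0.0162). Gm12981 overlaps Sesn2 on the same strand.

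Gdf15 (ENSMUSG00000038508, chr8:70629393-70632456, minus strand) encodes a secreted stress cytokine that is a circulating marker of mitochondrial disease. Gdf15 in naive set 1 was 2.53, 7, 4.52, 10.1 and 15.8 CPM in KO, 0.582, 0.324, 0.973 and 1.17 in Het and 0.133, 1.37, 0.603, 0.705 and 0.218 in WT. Every KO library was above every control, and Gdf15 rose by 3.37 ± 0.79 against Het (adjusted p = 0.00658) and 3.69 ± 0.74 against WT (adjusted p = 0.00275). At repopulation it held 6.74, 7.22, 11.8 and 11.9 CPM in KO, 0.54, 0.998, 0.343 and 3.27 in Het and 0.764, 1.53, 2.46 and 1.76 in WT, again apart (2.7 ± 0.61, adjusted p = 0.00207). At depletion it held 17.7 and 10.8 CPM in KO, 2.45 and 1.61 in Het and 1.38, 1.22, 2.33 and 1.81 in WT (2.94 ± 0.80, adjusted p = 0.0391). Although these ranges were also apart, the call was lost without any 1 of KO 1, KO 2, Het 1, Het 2, WT 1 and WT 2 (adjusted p 0.0587 to 0.4, highest without KO 1).

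Under cuprizone Gdf15 divided the KO libraries: KO 1 to 4 held 2.03, 2.31, 3.24 and 1.72 CPM, KO 5 held 22.5 and KO 6 held 7.85, with 0.589, 0.936, 1.85 and 0.535 in Het. KO 4 overlapped Het 3. The rise of 2.74 ± 0.82 (adjusted p = 0.0179) was not called among KO 1 to 4 and Het 1 and 2 (1.60, adjusted p = 0.390) nor among KO 5 and 6 and Het 3 and 4 (3.65, adjusted p = 0.0558), and leaving out Het 1, 2 or 4 gave adjusted p = 0.0601, 0.0524 and 0.0604. Gdf15 in naive set 2 ran from 0.633 to 2.48 CPM in KO and 0 to 1.62 in Het, where 3 libraries had no read, overlapping and not called (1.54 ± 0.66, adjusted p = 0.109).

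**Figure D3:**
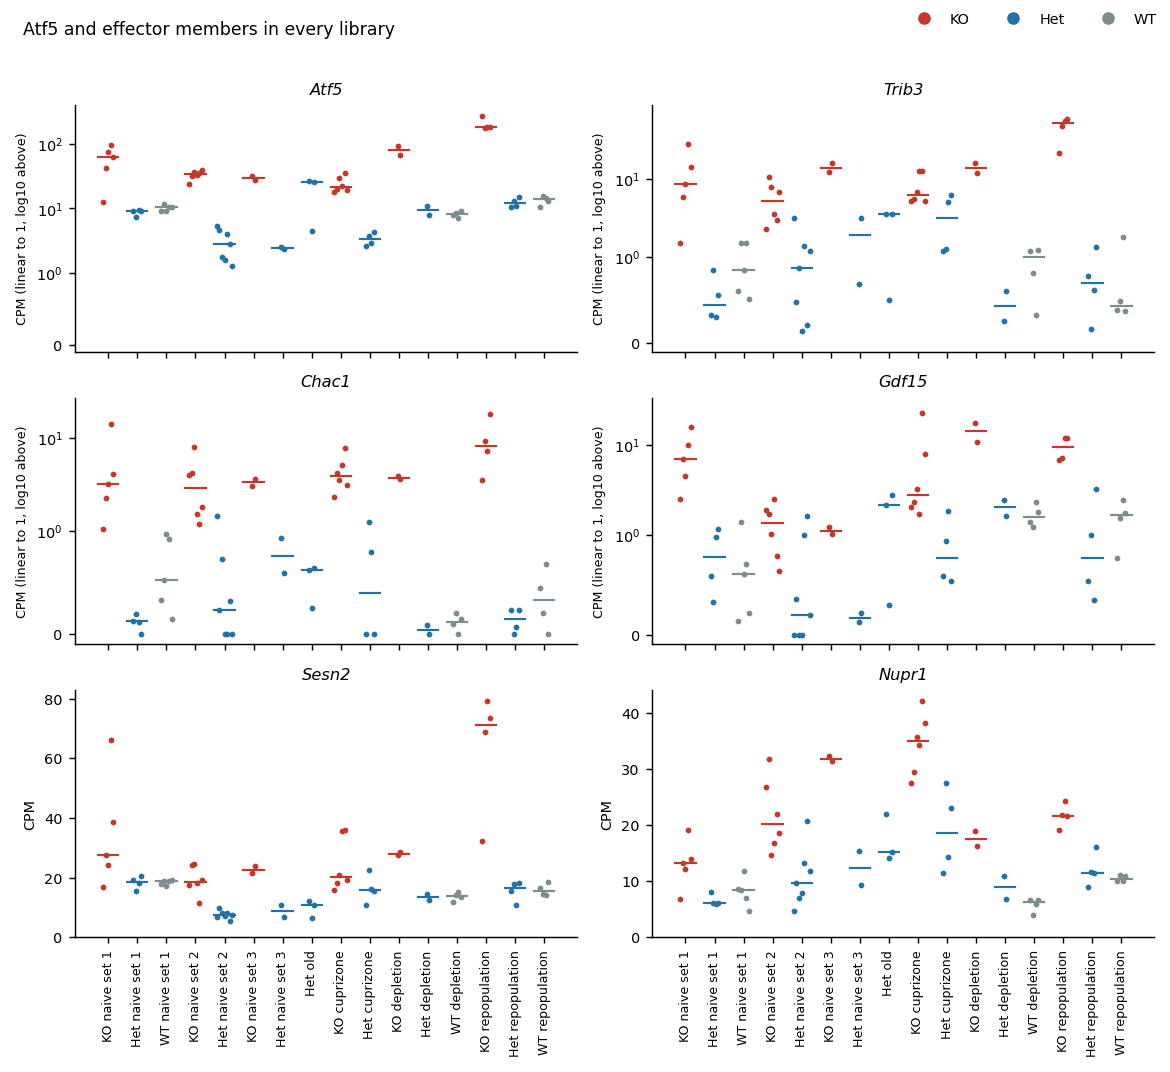
CPM of Atf5, Trib3, Chac1, Gdf15, Sesn2 and Nupr1 in each of the 64 libraries by group (x axis); the y axis is linear up to 1 CPM and log10 above for the first 4 and linear for Sesn2 and Nupr1, points are libraries and bars group medians. Atf5 in KO libraries (12.3 to 265 CPM) stands above the controls of each set or treatment (at most 15.6 CPM), and 2 of the 3 old Het libraries lie at 26.7 and 25.1 CPM.

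Ppp1r15a (ENSMUSG00000040435, chr7:45522916-45526268, minus strand) encodes GADD34, which directs protein phosphatase 1 to eIF2α and so ends the response. In naive set 2 it ran from 24.9 to 78.3 CPM in KO (median 43.9) and 135 to 221 in Het (median 205), every Het library above every KO library. It fell by 2.03 ± 0.46 (adjusted p = 0.00168). Under cuprizone KO 1 to 4 held 83.5, 65.2, 68.1 and 55.0 CPM, KO 5 and 6 held 529 and 493, and Het held 1151, 798, 1392 and 1743. It fell by 2.56 ± 0.51 (adjusted p = 0.000228); among KO 5 and 6 and Het 3 and 4 alone the difference was -1.62 (adjusted p = 0.178), and among KO 1 to 4 and Het 1 and 2 alone it was -3.84 (adjusted p = 1.31e-06).

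In naive set 3 KO held 31 and 28.1 CPM and Het 79.3 and 98.5, apart but not called (-1.59 ± 0.81, adjusted p = 0.635). In naive set 1 Ppp1r15a held 14.8, 35.3, 13, 77.9 and 71.4 CPM in KO, 49.1, 41.1, 58.9 and 33.1 in Het and 17.9, 23.3, 23.4, 15 and 46.5 in WT, wide and overlapping. The difference was -0.10 ± 0.53 against Het (adjusted p = 0.991) and of the opposite sign against WT (0.75 ± 0.51, adjusted p = 0.636), neither called. At depletion it held 43.1 and 14.1 CPM in KO, 32.3 and 9.68 in Het and 79.2, 50.4, 39.9 and 28.7 in WT, again overlapping (-0.17 ± 0.67, adjusted p = 1). At repopulation it ran from 37.7 to 84.3 CPM in KO, 51.6 to 285 in Het and 42.8 to 104 in WT, overlapping and not called (-0.77 ± 0.50, adjusted p = 0.422). Tulp2 overlaps Ppp1r15a on the opposite strand.

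Ppp1r15a is also an immediate-early stress gene. It was set beside the summed level of 12 immediate-early and heat-shock genes (among them Fos, Egr1, Atf3 and Hspa1a), without computing a correlation. Across sets the 2 levels parted. Het of naive set 1 had sums of 3911 to 4766 CPM with Ppp1r15a at 33.1 to 58.9 CPM. Het of naive set 3 had lower sums, 1876 to 2313 CPM, with Ppp1r15a at 79.3 to 98.5 CPM. Inside cuprizone and inside naive set 2 both the sum and Ppp1r15a were higher in Het. Under cuprizone that sum was 21538, 18508, 31649 and 39380 CPM in Het 1 to 4, 1491 to 2474 CPM in KO 1 to 4, and 10496 and 13031 CPM in KO 5 and 6. The naive set 2 sums were 1018 to 2971 CPM for KO libraries and 4152 to 11645 CPM for Het libraries. The same 2 comparisons are those in which Ddit3 and Ppp1r15a fell, Atf4 falling under cuprizone. Of the 12 genes, 10 fell in KO in naive set 2 and 10 under cuprizone, with medians of -2.17 and -2.14. By edgeR's adjusted test 0 of 12 were called in the other comparisons, and 0 by DESeq2. There the medians were 0.02 in naive set 1 against Het and 0.65 against WT (1 lower and 2 higher at an unadjusted p under 0.05), -1.08 in naive set 3 with 2 libraries a group (0 unadjusted), -0.01 at depletion (0 unadjusted) and -0.44 at repopulation (2 lower unadjusted). These genes and Ppp1r15a thus had lower values in KO of naive set 3 without a call. The part of these genes in the Atf4, Ddit3 and Ppp1r15a differences was not tested.

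**Figure D4:**
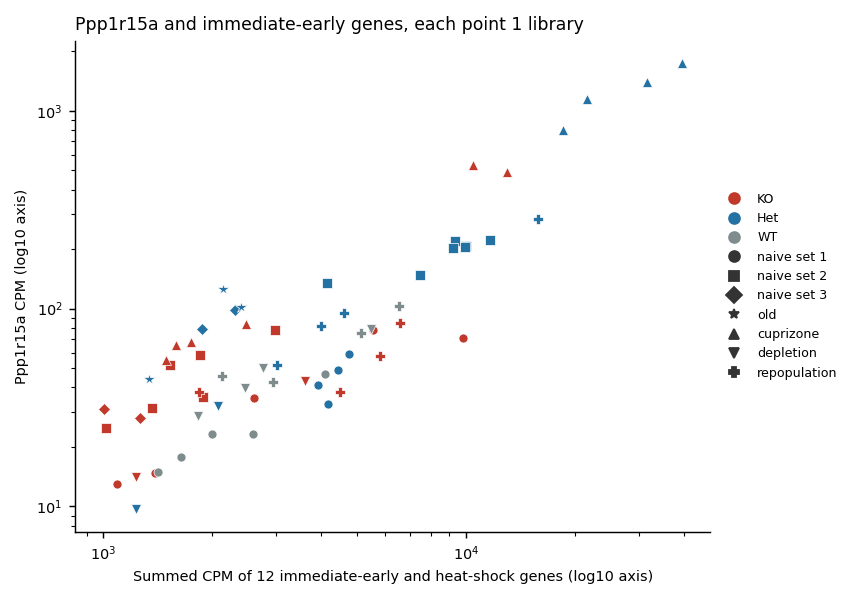
Ppp1r15a CPM (y axis, log10) against the summed CPM of 12 immediate-early and heat-shock genes (x axis, log10), 1 point per library, with colour for genotype and shape for set or treatment. Het cuprizone libraries lie at the upper right (18508 to 39380 CPM summed, 798 to 1743 CPM Ppp1r15a), with KO 5 and 6 of cuprizone below them and KO 1 to 4 of cuprizone among the naive libraries.

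Atf4 mRNA was set beside the mean log2 CPM of Atf5 and the 5 effectors (Trib3, Chac1, Nupr1, Sesn2 and Gdf15). These 6 are the members that rose in 4 or more comparisons, so a higher mean in KO follows from their choice and is given as a description. The mean ran from 2.98 to 4.48 in cuprizone KO and from 1.01 to 2.14 in cuprizone Het, while Atf4 itself ran from 7.08 to 7.68 in KO and from 7.91 to 8.75 in Het. At repopulation the mean of the 6 was 4.41 to 5.31 in KO, 1.19 to 2.2 in Het and 1.5 to 2.2 in WT, with Atf4 at 6.49 to 7.29, 6.09 to 7.01 and 6.03 to 6.82. In cuprizone libraries Atf4 was thus higher in Het and the mean of the 6 higher in KO, whereas at repopulation Atf4 too was higher in KO, with overlap. Reads of Atf5 per 100 reads of Atf4 had a median of 127 in KO, 13.9 in Het and 14.8 in WT at repopulation. The medians were 14.7 in KO and 1.04 in Het under cuprizone, 31.8 and 2.18 in naive set 2, and 46.6 in KO, 8.41 in Het and 9.21 in WT in naive set 1. The ratio was higher in every KO library than in every control of its set or treatment except in naive set 1, where KO 1 (11.9) lay under the highest WT library (12.2).

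**Figure D5:**
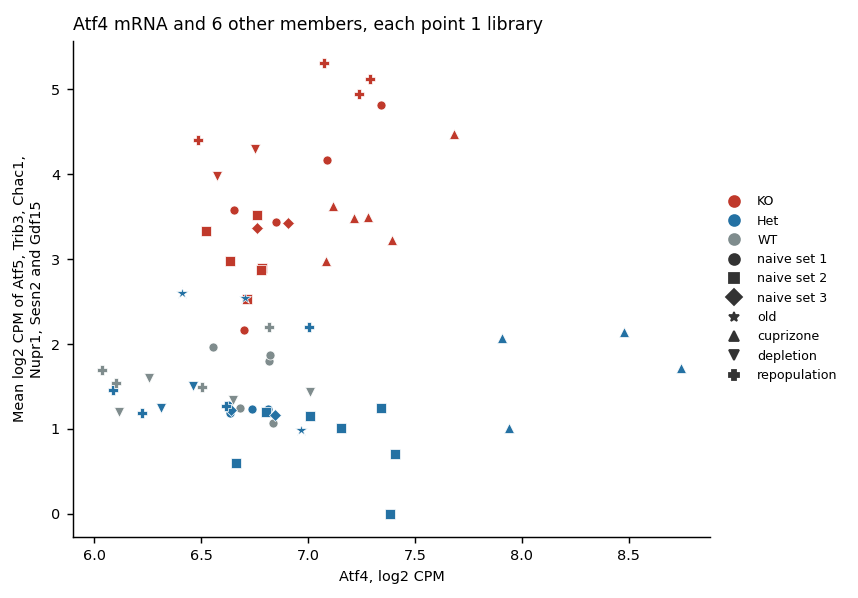
Mean log2 CPM of Atf5 and 5 effectors, the members that rose in 4 or more comparisons (y axis), against log2 CPM of Atf4 (x axis), 1 point per library, with colour for genotype and shape for set or treatment. Cuprizone Het libraries lie at the right with an Atf4 level of 7.91 to 8.75 and a mean of 1.01 to 2.14, and repopulation KO libraries at the top with a mean of 4.41 to 5.31.

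The KO effects were compared directly by interaction contrasts, each with 1 control genotype. For the contrasts of cuprizone and naive set 2 with repopulation the KO effect was KO against Het alone, also at repopulation, so their values differ from those obtained from the mean of Het and WT above. Against the KO effect at repopulation, the effect under cuprizone was lower in 4 members, beside 0.804% of all genes called lower: Atf4 (-1.53 ± 0.26, adjusted p = 0.000268), Ddit3 (-1.81 ± 0.29, adjusted p = 8.36e-05), Trib3 (-4.76 ± 0.94, adjusted p = 0.00169) and Sesn2 (-1.46 ± 0.38, adjusted p = 0.0283). The effect in naive set 2 was lower than at repopulation in 3 members, beside 0.494% of all genes: Atf4 (-0.96 ± 0.25, adjusted p = 0.0414), Ddit3 (-1.31 ± 0.27, adjusted p = 0.00728) and Trib3 (-3.56 ± 0.89, adjusted p = 0.0312). For Atf5 the difference from repopulation was -1.24 ± 0.54 under cuprizone (adjusted p = 0.289). Cuprizone and set 2 belong to the libraries rich in Gm26917 and Yam1 and repopulation to those poor in them, so condition and kind of library cannot be told apart in these contrasts.

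By edgeR's adjusted test 0 members differed in the KO effect between cuprizone and naive set 2 (2 at an unadjusted p under 0.05, 0.179% of all genes called), between repopulation and naive set 1 (KO against WT, 3 unadjusted, 0.038%), between depletion and naive set 1 (KO against WT, 1 unadjusted, 0%) or between naive sets 2 and 1 (4 unadjusted, 0.543%). Het and WT did not differ past the threshold in any member in naive set 1 (2 unadjusted, 0.0217% of all genes called), at depletion (0 unadjusted, 0.00543%) or at repopulation (0 unadjusted, 0%). DESeq2 was not run on these contrasts.

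Across treatments within a genotype, the cuprizone Het libraries were higher than naive set 2 Het libraries in 5 members, beside 3.48% of all genes: Atf4 (1.18 ± 0.17), Ddit3 (1.40 ± 0.19), Ppp1r15a (2.74 ± 0.48), Sesn2 (1.11 ± 0.26) and Nupr1 (0.82 ± 0.26). Atf5 was 0.15 ± 0.42 there and not called (adjusted p = 0.883). In KO 4 members were higher, beside 1.92%: Atf4 (0.61 ± 0.16), Ddit3 (0.90 ± 0.18), Ppp1r15a (2.21 ± 0.48) and Gdf15 (2.22 ± 0.64). Over all genes the median was -0.16 in Het and -0.09 in KO. Of the 12 immediate-early and heat-shock genes, 5 were called higher in Het (median 1.57) and 4 in KO (median 1.34) in the same contrasts. The part of these genes in the members' differences was not tested. Cuprizone libraries are shallower than all naive ones, and treatment and depth cannot be told apart here. Per the protocols the KO contrast also crosses sequencer models, so that treatment and sequencer cannot be told apart in it either. In fits of the compared libraries alone 4 of 7 tested members were higher in Het and 2 of 10 in KO.

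Repopulation KO libraries were higher than naive set 1 KO libraries in 5 members, beside 2.02% of all genes: Atf5 (1.82 ± 0.32), Trib3 (1.98 ± 0.59), Sesn2 (0.87 ± 0.26), Ddit3 (0.71 ± 0.20) and Cebpg (0.51 ± 0.15). In WT the same comparison called 0 members (1 unadjusted, beside 3.31% of all genes). In the fit of the compared libraries alone 1 member was higher in KO and 1 in WT. Depletion WT libraries were higher than naive WT in 1 member, Cebpg (0.56 ± 0.15, adjusted p = 0.0249), beside 1.42%, and depletion KO libraries in 0 (1 unadjusted, beside 1.29%). Per the protocols, naive KO and WT libraries were run on another sequencer model than the treated ones. On that account treatment and sequencer cannot be told apart in these contrasts of repopulation and depletion with naive set 1.

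In old mice, all labelled Het, Atf5 held 26.7, 4.5 and 25.1 CPM in Het 1, 2 and 3, against 2.47 and 2.32 CPM in the adult Het libraries of set 3. Old Het 1 and 3 lay just below the adult KO libraries of that set (31.4 and 27.6 CPM) and old Het 2 near adult Het. Atf5 was higher in old than in adult Het (2.96 ± 0.52, adjusted p = 7.05e-05), the 1 member called, beside 3.12% of all genes, and it stayed called with each old library left out (2.62 to 3.40), but 0 members were called in edgeR's fit of these libraries alone. Gdf15 held 2.13, 0.3 and 2.75 CPM in the same order and was not called (3.25 ± 1.18, adjusted p = 0.103), but was without old Het 2 (3.72, adjusted p = 0.0437). Trib3 held 3.53, 0.5 and 3.52 CPM, high and low in the same libraries. Uqcrfs1 was 7.01, 13.1 and 9.29 CPM in the libraries labelled old Het 1 to 3 against 11.4 and 12.7 CPM in adult Het of set 3 and 2.82 and 2.67 CPM in adult KO, so that the 2 old libraries with high Atf5 held less Uqcrfs1 than the third. The sum of 7 microglia markers was 15232.5, 18151.5 and 15169.8 CPM in old Het 1 to 3. In set 3 it was 27041.5 and 23378 CPM in adult Het and 21374.5 and 23512.1 CPM in adult KO. TMM factors were 0.742, 0.920 and 0.709 in old Het 1 to 3, 1.01 and 1.05 in adult Het and 0.757 and 0.801 in adult KO. The part of Uqcrfs1, of these markers and of library composition in the Atf5 difference was not tested.

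Upstream of Atf4, none of the 4 eIF2α kinase genes (Eif2ak1 for HRI, Eif2ak2 for PKR, Eif2ak3 for PERK, Eif2ak4 for GCN2) was called in any of the 7 comparisons by edgeR's adjusted test or by DESeq2 (1 gene at an unadjusted p under 0.05 in naive set 2 and 1 at repopulation). Among the 8 eIF2 and eIF2B subunits, Eif2s2, the β subunit of eIF2, rose in naive set 1 against Het (0.55 ± 0.11) and in set 3 (0.63 ± 0.16). It rose also under cuprizone (0.45 ± 0.11) and at repopulation (0.66 ± 0.10, adjusted p = 1.24e-06). Under cuprizone 3 of the 8 rose and 1, Eif2b2, fell (-0.96 ± 0.24), beside 8.16% of all genes higher and 5.83% lower. At repopulation 2 rose, beside 4.01%. In naive set 1 against Het 1 rose (1.48%), in set 2 1 (7.68%) and in set 3 1 (0.348%). By edgeR's adjusted test 0 were called against WT of set 1 or at depletion. Of 6 relay and phosphatase genes, 1 rose in naive set 2 (7.68%), 0610009O20Rik, the table's name for Dele1 (0.36 ± 0.10, adjusted p = 0.0107). Under cuprizone 1 rose (8.16%), the phosphatase gene Ppp1ca (0.51 ± 0.13, adjusted p = 0.00439). By edgeR's adjusted test 0 were called in the other comparisons, and Oma1, named here for its role, was called in none of the 7.

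Of 24 other known ATF4 targets, 22 were tested. Of these, 10 rose in naive set 1 against Het (beside 1.48% of all genes) and 10 against WT (1.15%). In naive set 2 15 rose (7.68%), in naive set 3 4 (0.348%), under cuprizone 12 (8.16%), at depletion 5 (1.1%) and at repopulation 15 (4.01%). In these comparisons 0 fell. Their median log2 fold change was 0.89, 0.66, 0.83, 0.86, 0.64, 0.67 and 1.39 in that order, against medians over all genes of at most 0.03. Mthfd2, a mitochondrial folate enzyme, rose by 2.44 ± 0.36 in naive set 1 against Het and 2.03 ± 0.29 in set 2. Phgdh, which opens serine synthesis, rose by 1.03 ± 0.18 under cuprizone and 1.61 ± 0.15 at repopulation. The amino acid transporter gene Slc7a5 rose by 1.84 ± 0.16 and the seryl-tRNA synthetase gene Sars by 1.43 ± 0.12 at repopulation (adjusted p = 4.53e-12 and 9.75e-13). Under cuprizone, where Atf4 mRNA fell, 12 of the 22 targets rose and 10 were not called.

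Among 8 bZIP partners, Cebpd was lower in KO in all 7 comparisons, with log2 fold changes from -0.46 to -1.0, and Atf3 fell in naive set 2 (-2.24 ± 0.57) and under cuprizone (-2.95 ± 0.62), where the immediate-early genes also fell. Nfe2l1 rose in naive set 2 (0.51 ± 0.13), under cuprizone (0.73 ± 0.16) and at repopulation (0.81 ± 0.14). Cebpa fell under cuprizone (-0.94 ± 0.16), and Jdp2 rose at repopulation (0.93 ± 0.29). In naive set 2 1 of the 8 rose and 2 fell (7.68% and 6.07% of all genes). Under cuprizone 1 rose and 3 fell (8.16% and 5.83%), and at repopulation 2 rose and 1 fell (4.01% and 3.45%). Of 12 endoplasmic reticulum unfolded protein response genes, 5 fell in naive set 1 against Het (1.25% of all genes). By edgeR's adjusted test 0 fell against WT of the same set (3 lower at an unadjusted p under 0.05, 2 called by DESeq2, 0.787% of all genes). That comparison shares the KO libraries and, only per the protocols, the sequencer. There were 2 that fell in naive set 2 (6.07%), 1 in set 3 (0.223%), 3 under cuprizone (Hspa5 -1.26 ± 0.18, Herpud1 -0.91 ± 0.15, Dnajb9 -0.74 ± 0.15; 5.83%), 3 at depletion (0.614%) and 5 at repopulation (Calr -0.91 ± 0.11; 3.45%), and 1, Edem1, rose at repopulation (0.51 ± 0.08). The list's median log2 fold change was -0.42, -0.22, -0.19, -0.45, -0.19, -0.49 and -0.45 in that order. Between Het and WT of naive set 1 it was 0.22, with 0 called and 6 higher in Het at an unadjusted p under 0.05. Of 7 mitochondrial chaperone and protease genes, Hspa9, the mitochondrial HSP70, rose in 5 of the 7 comparisons, among them naive set 2 (0.70 ± 0.10), depletion (0.57 ± 0.15) and repopulation (1.09 ± 0.11, adjusted p = 2.50e-10). In all, 2 of the 7 genes rose in naive set 2, 2 under cuprizone and 2 at repopulation. In naive set 1 against WT 1 rose (1.15% of all genes), in set 3 1 (0.348%) and at depletion 1 (1.1%). By edgeR's adjusted test 0 rose in naive set 1 against Het (2 higher at an unadjusted p under 0.05). Of 5 tested genes tied to CHOP, Ero1l, an endoplasmic reticulum oxidase, rose in naive set 2 (0.60 ± 0.14), under cuprizone (1.03 ± 0.17) and at repopulation (0.67 ± 0.14). The 4 death genes of that list went both ways. The death receptor gene Tnfrsf10b rose in naive set 2, where Ddit3 fell (2.73 ± 0.67, adjusted p = 0.00341), and Bcl2l11, which encodes BIM, fell there (-0.60 ± 0.18, adjusted p = 0.0197). Under cuprizone, where Ddit3 also fell, Bbc3, which encodes PUMA, fell (-0.98 ± 0.23, adjusted p = 0.00163), as did Bcl2l11 (-0.67 ± 0.21, adjusted p = 0.0239). Pmaip1, which encodes NOXA, rose in naive set 1 against WT (1.09 ± 0.27, adjusted p = 0.0199).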

How the data were processed

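RNA was measured in 64 libraries of sorted mouse microglia. The authors deposited 1 table of raw counts per gene (45708 genes). Per the labels' protocols the kit was stranded and the reads single-end; the submitters' processing notes name STAR 2.6.1d and Salmon 1.5.2, without saying which made the counts, Trim Galore 0.6.7 and build GRCm38. The counting tool, the annotation and the strand setting of these counts are not given in the sources used here. Every column of the table was used.

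Counts were fitted with edgeR 4.0.16 (limma 3.58.1, R 4.3.3): TMM scaling, filterByExpr (minimum count 10, minimum total 15; 18413 genes left), 1 coefficient per group and naive set over all 64 libraries, two-sided quasi-likelihood tests, and Benjamini-Hochberg adjustment over all genes at 0.05. CPM is the count over the TMM-scaled library total. SE is the fold change divided by the root of F, and 95% intervals are 1.96 SE. The naive sets follow replicate numbers. Members, lists and tests were chosen with earlier results of these data known, and the comparisons of cuprizone and naive set 2 with repopulation, the divisions inside sets and the old libraries left out were added after seeing the data. From each list up to 4 called genes with the smallest p in a comparison could be named. Alternatives were the compared libraries alone, size factors, the DESeq2 1.42.0 Wald test, no filter, no naive sets, a replicate block, sex as covariate and each library of groups of 2 to 5 left out in turn, the last with the trended dispersion and genes of the full fit held. Sex was taken from the counts of Y-linked genes (male above 10 CPM), which gave 41 male and 23 female libraries. The scripts were tested on simulated data. No 2 libraries held identical counts, and the smallest chi-square per degree of freedom between replicates was 12.4. Depth is given with the results, and counting error is widest for Chac1, Gdf15 and Trib3 in controls. A value that rests on 1 further marker gene is not reported here.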

Additional observations from a re-analysis of the deposited data

Results flagged for a closer look

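Each member was searched, in each group of 4 to 7 libraries, for a library far from the rest of its group. Of 110 such combinations of member and group, 7 were flagged, where chance flags about 1 in 20, so the share flagged is near that rate. The q values of the 7 ran from 0.593 to 0.918, none under 0.05. Atf5 stood at 265 CPM in KO 1 of repopulation, above 172 to 184 CPM in the others. Chac1 stood at 14.0 CPM in KO 4 of naive set 1, which was also the highest library of its group in Trib3, Nupr1 and Sesn2. Gdf15 stood at 22.5 CPM in KO 5 of cuprizone. Trib3 stood at 3.14 CPM in Het 5 of naive set 2 and at 1.78 CPM in WT 3 of repopulation. Nupr1 stood at 8.02 CPM in Het 1 and Ppp1r15a at 46.5 CPM in WT 5 of naive set 1.

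The KO to Het difference itself differed between conditions by edgeR's interaction test in 7 cases. Between cuprizone and repopulation it differed by -1.53 for Atf4 (adjusted p = 0.000268), -1.81 for Ddit3 (8.36e-05), -4.76 for Trib3 (0.00169) and -1.46 for Sesn2 (0.0283). Between naive set 2 and repopulation it differed by -0.96 for Atf4 (adjusted p = 0.0414), -1.31 for Ddit3 (0.00728) and -3.56 for Trib3 (0.0312). These contrasts were chosen after seeing the data.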

How the results depend on the processing

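Of 992 values of members under other settings, 869 kept direction and side of the threshold, 85 lost the call, 22 gained one and 16 changed sign. All sign changes were of members not called. In naive set 1 against Het they were Atf4 (-0.13) and Ddit3 (-0.10) without naive sets, and Ppp1r15a (0.73) and Cebpg (0.30) with terms for divisions inside a set; with 1 library left out Ppp1r15a ran from -0.44 to 0.13 and Cebpg from -0.24 to 0.013. In naive set 3, without naive sets, Atf4 was -0.13, Ddit3 -0.10 and Cebpg -0.027, and with 1 library left out Atf4 ran from -0.018 to 0.196 and Cebpg from -0.019 to 0.19. At depletion Ppp1r15a ran from -1.2 to 0.42.

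Counts of members called moved as follows. In naive set 1 against WT, 3 were higher with the compared libraries alone, 3 among KO 1 to 4 and WT 1 to 4, and 3 to 5 with 1 library left out. In naive set 3, 3 were higher with DESeq2 and 6 without naive sets, and 1 was lower with the compared libraries alone and 1 without naive sets. Without naive sets 1 was lower in naive set 1 against Het and 1 in naive set 2. Under cuprizone 2 were higher with the compared libraries alone, 1 in either division, and 1 to 3 with 1 library left out. At depletion 3 to 5 were higher with 1 library left out. With the replicate block 0 were higher in naive set 1 against Het and 0 against WT, 1 under cuprizone and 3 at depletion, and 1 was lower in naive set 2 and 1, Ppp1r15a, at repopulation. Same-numbered libraries did not deviate together in any comparison with 3 or more pairs (correlations from -0.13 to 0.21, not over 0.1 in every pair), so the numbers were not taken as pairing. The cause of these shifts was not tested. Low counts in controls limit Chac1, Gdf15 and Trib3 most.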
